A study of Mus musculus with 6 samples.

Results

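The 9 genes described here, Cldn1, Cldn3, Cldn5, Cldn10, Cldn11, Cldn12, F11r, Ocln and Epcam, encode membrane proteins of the tight junction or, for Epcam, an epithelial adhesion protein that associates with claudins. They were chosen by symbol, and all 9 were found among the 22001 genes of the count table. The set was chosen with its values in the comparison of Insm1 with control libraries in view, so for all 9 genes that comparison is given as a description. No p-value is given for them, and a count of calls among them stands only beside the share over all genes and supports nothing. The samples were neocortical cells of mouse embryos at E14.5, sorted for the red fluorescent protein mCherry 24 h after in utero electroporation at E13.5, a procedure that drives plasmid DNA into cells lining the brain ventricle. In the 3 control libraries the plasmid carried mCherry with no other gene, and in the 3 Insm1 libraries it carried Insm1 together with mCherry. The labels give no strain, sex or plasmid promoter and do not say how many embryos went into a library. Insm1 encodes a transcription factor with zinc fingers that is found in neural progenitors and neuroendocrine cells.

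Tight junctions seal the space between epithelial or endothelial cells. Claudins, which cross the membrane repeatedly, set which ions pass, while occludin and the junctional adhesion molecules stabilise the belt and scaffold proteins such as ZO-1 (Tjp1) tie it to actin. The early neural plate is an epithelium with tight junctions. The neuroepithelium and radial glia that follow it lose occludin and are held together mainly by adherens junctions, and tight junctions of the brain are then known chiefly from its vessels and choroid plexus.

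Most claudins share a stretch of their first extracellular loop with a glycine-leucine-tryptophan run followed by a pair of cysteines; of the 6 claudins in the set, Cldn10 did not hold it in the exact form searched. The coding sequence of this stretch, read from GENCODE M21 transcripts on GRCm38, is shown for Cldn3 and Cldn12, the claudins with the most counts among the 9 genes, and for Cldn4 and Cldn5, to show how far a read of Cldn3 can be told from its relatives. Capitals mark the codons of the conserved glycine, leucine, tryptophan and cysteines.
Cldn3: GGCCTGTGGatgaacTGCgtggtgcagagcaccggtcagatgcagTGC
Cldn4: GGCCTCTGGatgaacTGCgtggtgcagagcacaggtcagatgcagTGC
Cldn5: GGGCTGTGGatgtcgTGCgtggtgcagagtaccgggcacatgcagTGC
Cldn12: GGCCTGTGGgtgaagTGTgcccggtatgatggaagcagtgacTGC
On GRCm38 these lie at chr5:134986586-134986633 (plus strand) for Cldn3, chr5:134946554-134946601 (minus strand) for Cldn4, chr16:18777140-18777187 (plus strand) for Cldn5 and chr5:5508225-5508269 (minus strand) for Cldn12, each within 1 coding exon. Over these 48 bases Cldn4 differed from Cldn3 at 2 positions and Cldn5 at 7, and the Cldn12 stretch, at 45 bases, has another spacing. None of the 1185 stretches of 75 bases in the Cldn3 transcript, the read length of the study, matched another gene exactly. The closest relative examined was Cldn4, whose nearest such stretch differed at 4 bases, and none of the 10 relatives compared had a stretch within 2 mismatches. Cldn4 itself was at 0 counts in all 6 libraries. Among the other 8 genes only F11r had stretches found elsewhere, 5 of 2444.

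Depth was even, with library totals between 30017645 and 31645135 counts. Insm1, the check of the labels, lay between 222 and 370 CPM (counts relative to library size, with the TMM scaling of edgeR) in the controls and between 1435 and 2172 CPM in the Insm1 libraries. Cortical markers were abundant in every library. The 3 controls summed to between 7584 and 8219 CPM and the Insm1 libraries to between 8830 and 8934 CPM over 11 such genes. Of these, 3 (Tubb3, Neurod6 and Emx1) were called higher by edgeR, where 1.23% of all tested genes were. Sox2 lay the other way, at 115 CPM in the mean of the controls and 82.4 CPM in that of the Insm1 libraries. Its log2 fold change was -0.48 (edgeR adjusted p = 0.12), and of 6 genes of the list called by DESeq2 only Sox2 was lower. Pax6, Neurog2, Eomes and Hes5 also had negative log2 fold changes and were not called. With single libraries left out the Tubb3 call held in all 6 fits, the Neurod6 call in 2 and the Emx1 call in 1. Nothing in the labels ties a library to a litter, so the p-values rest on library-to-library spread alone, part of which could be technical. In sorted pools of this kind fewer cells of a type and less RNA per cell cannot be told apart.

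Only Cldn12, Cldn3 and F11r had more than 50 counts in the 6 libraries together. Cldn3, a sealing claudin of epithelia, was at 10.8, 6.91 and 6.43 CPM in controls 1, 2 and 3 and at 14.3, 22.3 and 16.7 CPM in Insm1 libraries 1, 2 and 3. Every Insm1 library lay above every control, and control 1 stood closest to the Insm1 group. The group means were 8.05 ± 2.40 CPM and 17.8 ± 4.10 CPM (SD, n = 3 each), which is 2.21-fold higher with Insm1 (log2 fold change 1.14, standard error 0.24). In raw counts this was 334, 213 and 197 against 444, 689 and 517. With single libraries left out the log2 fold change lay between 0.95 (without Insm1 library 2) and 1.42 (without control 1).

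Cldn12, a broadly expressed claudin, was the most abundant of the 9 in CPM. It was at 47.8, 46.6 and 53.2 CPM in the controls and at 32.6, 47.5 and 29.4 CPM in Insm1 libraries 1, 2 and 3. Insm1 library 2 fell among the controls, whereas the other Insm1 libraries lay below all of them. The means were 49.2 ± 3.51 and 36.5 ± 9.68 CPM (SD, n = 3 each), which is 1.35-fold lower with Insm1 (log2 fold change -0.43, standard error 0.16). With single libraries left out the log2 fold change lay between -0.67 (without Insm1 library 2) and -0.29 (without Insm1 library 3).

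F11r encodes the junctional adhesion molecule JAM-A. It was at 1.33, 2.5 and 1.86 CPM in the controls and 2.29, 2.30 and 2.00 CPM in the Insm1 libraries. The groups overlapped, with the Insm1 libraries inside the range of the controls. Its log2 fold change of 0.21 had a 95% interval from -0.58 to 1.01.

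The other 6 genes had too few counts to show a difference. Cldn1, the claudin of the skin barrier, passed the filter on low counts because 3 libraries held more than 10 counts. It had 12, 2 and 13 counts in the controls and 14, 0 and 0 in the Insm1 libraries, so 1 Insm1 library held all of that group's counts. Its fitted log2 fold change of -0.94 had a standard error of 1.26 and a 95% interval from -3.75 to 1.88. Ocln and Cldn10, with 45 and 43 counts in all, did not pass that filter, although Cldn1 had 41.

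Ocln encodes occludin, the first known membrane protein of the tight junction. It had 9, 4 and 0 counts in the controls and 25, 3 and 4 in the Insm1 libraries. Cldn10, a claudin that forms ion pores, had 3, 5 and 5 counts in the controls and 19, 3 and 8 in the Insm1 libraries. In both genes Insm1 library 1 stood apart from the others of its group and held 55.6% of all Ocln counts and 44.2% of all Cldn10 counts.

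Epcam had 16, 0 and 0 counts in the controls and 1, 4 and 1 in the Insm1 libraries. Cldn5, the main claudin of brain endothelium, had 10, 0 and 0 counts in the controls and 0, 0 and 3 in the Insm1 libraries. Control 1 thus held 72.7% of the Epcam counts and 76.9% of the Cldn5 counts. Cldn11, a claudin of myelin, was at 0 in the 3 controls and at 3, 0 and 1 counts in the Insm1 libraries. A library with 0 counts still allows up to 3 counts, 0.0948 to 0.0999 CPM at these depths, so a difference of this size in Cldn11 was not detectable.

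**Figure D1:**
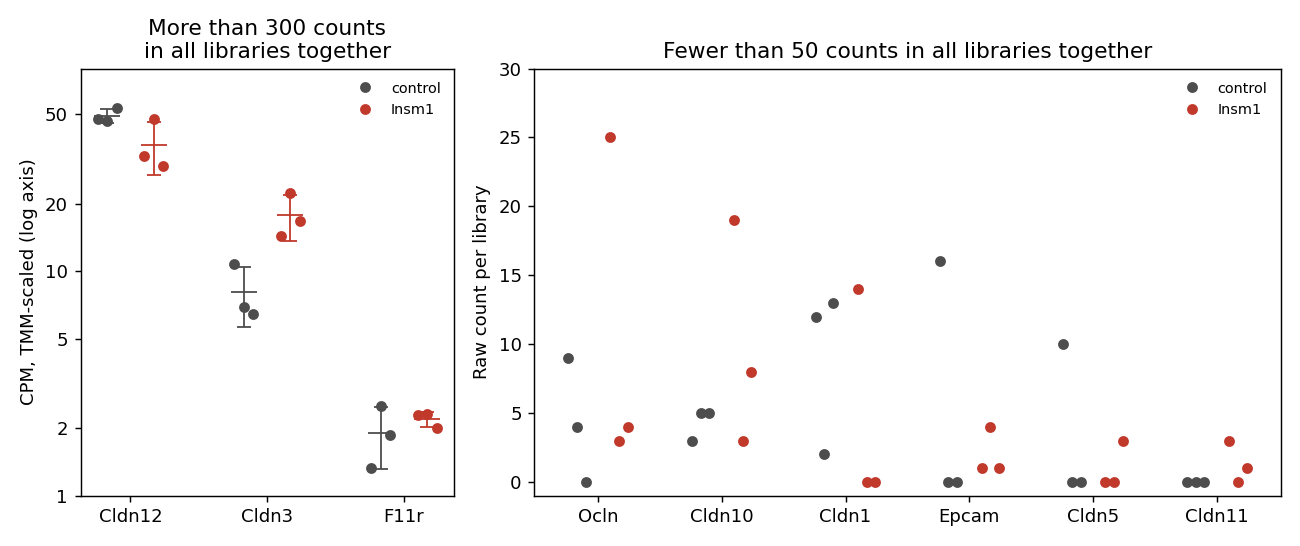
Left, CPM on a log axis for Cldn12, Cldn3 and F11r, with 1 point per library (controls grey, Insm1 red) and bars for the mean and SD of 3 libraries; right, raw counts per library for the 6 genes with fewer than 50 counts in all. The groups are apart only for Cldn3, at 6.43 to 10.8 CPM against 14.3 to 22.3 CPM, and single libraries hold most counts of Ocln, Epcam, Cldn5 and Cldn11.

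Of the 4 genes tested in the fit over all genes, 1, Cldn3, had libraries that did not overlap between groups, where 22.2% of all 13560 tested genes did so, 10.4% with higher and 11.8% with lower Insm1 libraries. The same gene was the only one of the 4 called at an adjusted p below 0.05 (edgeR's quasi-likelihood test), where 1.23% of tested genes were called higher, 2.12% lower and 3.35% in either direction. Since the genes were picked with this comparison in view, nothing is read from either count.

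On GRCm38, Cldn3 (ENSMUSG00000070473) is a protein-coding gene of a single exon at chr5:134986214-134987472, plus strand. Cldn12 (ENSMUSG00000046798) lies at chr5:5489537-5514958, minus strand, and F11r (ENSMUSG00000038235) at chr1:171437535-171464603, plus strand. The Cldn3 exon shares 40 bases with Wbscr25, a gene on the other strand, and the exons of the other 8 genes overlap no other annotated gene. Of the neighbours of Cldn3, Cldn4 lies 39280 bases before it with 0 counts, and Abhd11, a gene for a hydrolase 21680 bases after it, was at 13.4 ± 1.98 and 13.2 ± 1.36 CPM (SD, n = 3 each; log2 fold change -0.02, 95% interval -0.39 to 0.34, edgeR adjusted p = 0.97). Beside Cldn12, Gtpbp10 was at 37.7 ± 2.66 and 34.2 ± 3.63 CPM (SD, n = 3 each; edgeR adjusted p = 0.61). Usf1 and Alyref2, on either side of F11r, had adjusted p values of 0.2 and 0.58 in the same test. Leprel1, a gene for a collagen-modifying enzyme next to the sparsely counted Cldn1, fell 2.71-fold from 4.69 ± 1.07 to 1.73 ± 0.504 CPM (SD, n = 3 each; edgeR adjusted p = 0.0463). Its call held in 1 of the 6 fits that left out a library, the one without control 2.

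To compare levels between genes, CPM was divided by the length of the gene's merged exons. On this scale Cldn12 was at 11.6 ± 0.83 and Cldn3 at 6.39 ± 1.91 CPM per kilobase of exon in the controls (SD, n = 3 each), and every control had more Cldn12 than Cldn3. In the Insm1 libraries Cldn12 was at 8.64 ± 2.29 and Cldn3 at 14.1 ± 3.26 CPM per kilobase (SD, n = 3 each), and every Insm1 library had more Cldn3 than Cldn12. The level of Cldn3 divided by that of Cldn12 was 0.760, 0.498 and 0.406 in the respective controls, against 1.48, 1.58 and 1.91 with Insm1. F11r followed at 0.71 ± 0.22 and 0.83 ± 0.064 CPM per kilobase (SD, n = 3 each). The other 6 genes were below 0.13 CPM per kilobase in either group mean. In the controls Cldn1 and Cldn10 lay wholly above Cldn11, which was at 0, and otherwise the order of these genes lay within the spread of the libraries.

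The deposited TPM values (abundances scaled by length and library) give another order, since they rest on another length. In 95.2% of 11036 genes the length implied by a count and its TPM matched the span of the gene with its introns to within 1%, and in 0.734% it matched the merged exons. The span of Cldn3, a gene without introns, is its exon of 1259 bases, whereas Cldn12 spans 25422 bases for 4228 bases of exon. In the authors' TPM, Cldn3 stood at 57.0 ± 16.6 and Cldn12 at 17.3 ± 1.62 in the controls (SD, n = 3 each), so Cldn3 was above Cldn12 in all 6 libraries. With the longest transcript as the length, a choice made after seeing the data, the ratio of Cldn3 to Cldn12 lay between 0.36 and 0.67 in the controls and between 1.31 and 1.7 in the Insm1 libraries, the same order as with merged exons. The fold change of a gene between groups does not depend on its length. The sources used here do not say whether reads in introns were counted.

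**Figure D2:**
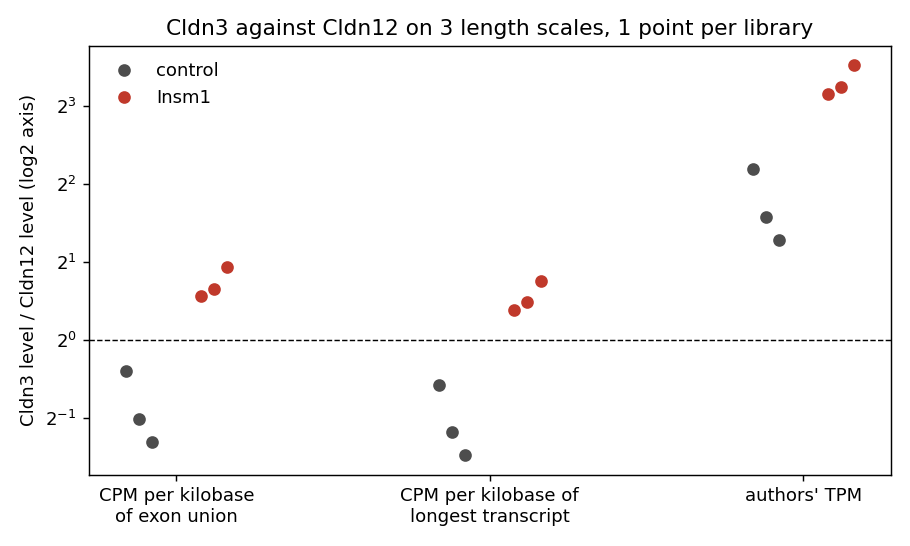
The level of Cldn3 divided by that of Cldn12 in each library (controls grey, Insm1 red), on a log2 axis, for CPM per kilobase of merged exons, CPM per kilobase of the longest transcript and the authors' TPM. The dashed line marks equal levels; on both exon scales controls lie below it and Insm1 libraries above it, and in the authors' TPM all 6 libraries lie above it.

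The claudin family as a whole was narrow in these cells. Claudin-like genes, among them Cldnd1, were left out of it here. Of 33 claudin genes in the table, 12 were at 0 counts in all 6 libraries, 10 had enough counts to be tested and 6 reached 1 CPM in the mean of either group. Per kilobase of exon, Cldn3 made up 22.7 ± 5.39% of the summed claudin level in the controls and 43.1 ± 4.07% in the Insm1 libraries, and Cldn12 made up 41.9 ± 5.15% and 26.2 ± 3.04% (SD, n = 3 each). Together they held between 59.7% and 75.7% of it in each library. The summed level was 27.9 ± 1.67 and 32.6 ± 4.96 CPM per kilobase (SD, n = 3 each). Cldnd1 alone was at 46.8 ± 0.83 and 47.6 ± 2.59 CPM per kilobase (SD, n = 3 each), above that sum. The shares given here therefore hold only for the family without it.

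Among the other claudins, from a list that also holds claudin-like genes, 31 were in the table and 8 were tested. None was called by edgeR's quasi-likelihood test, where 3.35% of all tested genes were. None was at an unadjusted p below 0.05 in that test, and none was called by DESeq2 or limma. At that share 8 genes are too few for this count to say anything about them. Their median log2 fold change was -0.035, against -0.0086 over all genes tested. The most abundant was the claudin-domain gene Cldnd1, named Cldn25 in the table, at 120 ± 2.13 and 122 ± 6.63 CPM (SD, n = 3 each). Its log2 fold change was 0.02 with a 95% interval from -0.13 to 0.18. Cldn34c1 (3110007F17Rik in the table) was at 15.8 ± 0.86 and 16.3 ± 1.36 CPM, and it and its relatives Cldn34c2 and Cldn34c3 are similar copies between which reads may be split. Cldn19 and Cldn20 were at 2.37 ± 0.96 and 0.97 ± 0.28 CPM in the controls (SD, n = 3), with adjusted p values of 0.79 and 0.82 in the edgeR fit. The groups overlapped in all 8, where 22.2% of all tested genes did not overlap.

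Of the other junction membrane proteins 9 of 17 in the table were tested, 1 rose and none fell (3.35% of all tested genes were called), with a median log2 fold change of -0.0084. The gene that rose was Clmp, a relative of the coxsackievirus and adenovirus receptor, at 121, 113 and 143 CPM in the controls and 154, 187 and 173 CPM in the Insm1 libraries. The groups did not overlap, a 1.36-fold rise (log2 fold change 0.45, standard error 0.10, edgeR adjusted p = 0.0415). The call was lost without control 1, control 2, Insm1 library 2 or Insm1 library 3 (adjusted p between 0.0738 and 0.138). Cxadr, the coxsackievirus and adenovirus receptor itself, was at 366 ± 21.6 and 376 ± 20.8 CPM (SD, n = 3 each; edgeR adjusted p = 0.83), and shares exon sequence with Btg3. The junctional adhesion molecules Jam2 and Jam3, relatives of F11r, were at 58.8 ± 2.68 and 66.7 ± 6.10 CPM in the controls and 47.9 ± 3.64 and 54.2 ± 5.35 CPM in the Insm1 libraries (SD, n = 3 each). In both genes the groups did not overlap, with log2 fold changes of -0.30 in each and edgeR adjusted p values of 0.12 and 0.17. Lsr, a protein of the contacts where 3 cells meet, was at 18.1 ± 2.66 and 18.7 ± 4.41 CPM (SD, n = 3 each; edgeR adjusted p = 0.95). Marveld2, the occludin relative at the same contacts, had 6, 0 and 6 counts in the controls and 8, 2 and 24 in the Insm1 libraries. Most of its Insm1 counts were thus in Insm1 library 3, and it was not tested.

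Per kilobase of exon, 4 of these proteins stood above every one of the 9 genes in the controls. Cxadr at 49.4 ± 2.92 and Cldnd1 at 46.8 ± 0.83 were highest and overlapped, followed by Clmp at 27.4 ± 3.40 and Jam3 at 20.8 ± 1.91 CPM per kilobase (SD, n = 3 each). Cldn12 held rank 5 and its 3 controls lay wholly above those of Jam2, at 9.73 ± 0.44, which overlapped with Lsr. Cldn3 held rank 8, and its controls overlapped with those of Lsr and lay wholly above the next gene, Cldn34c2. In the Insm1 libraries Cldn3 held rank 5, overlapped with Jam3 and lay wholly above Cldn12. That separation from Cldn12 was narrow. With the longest transcript as the length, Cldn12 in Insm1 library 2, at 12.7 CPM per kilobase, was above Cldn3 in Insm1 library 1, at 11.4.

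**Figure D3:**
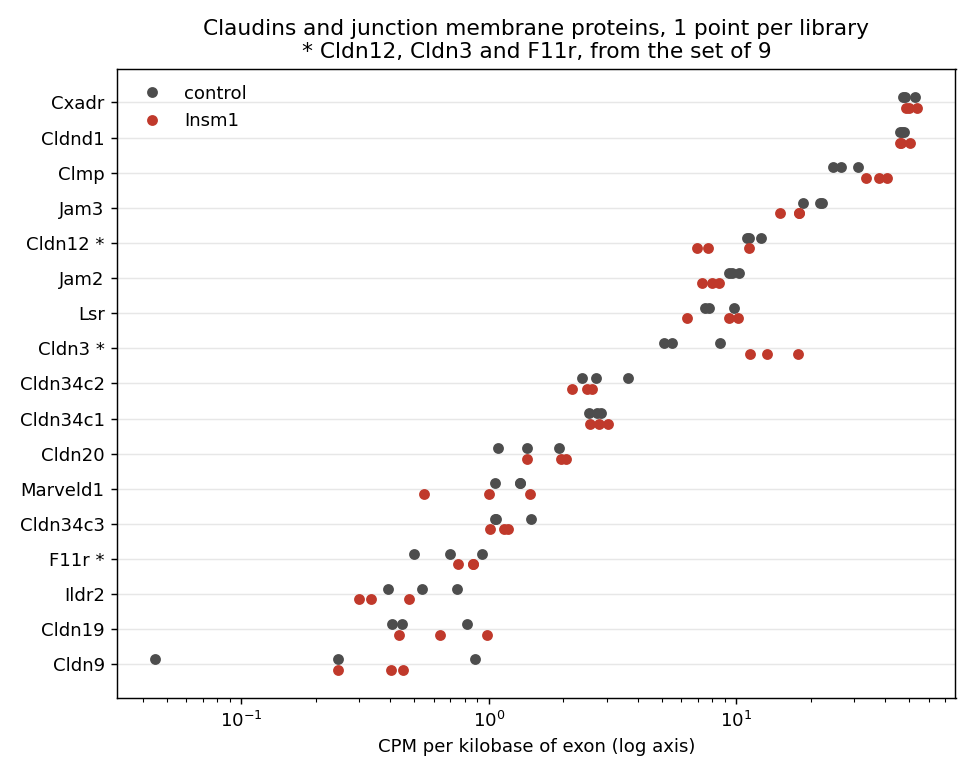
CPM per kilobase of exon on a log axis for the 17 most abundant claudins and junction membrane proteins with counts in every library, 1 point per library (controls grey, Insm1 red), ordered by their mean in the controls. Cldn3 stands next to Lsr in the controls and near Jam3 in the Insm1 libraries, and F11r lies below Cldn12 in all 6 libraries.

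The plaque under the membrane, whose scaffolds bind the tails of claudins and occludin, was tested almost in full. Of 36 plaque and signalling genes 35 were tested, 1 rose, 2 fell and 32 did not pass, where 1.23% of all tested genes rose and 2.12% fell. The median log2 fold change of the list was -0.1, against -0.0086 over all genes. The libraries did not overlap between groups in 5 of the 35 with higher and 8 with lower Insm1 values, where 10.4% and 11.8% of all tested genes did not overlap in these directions. Arhgef2, the junction-bound guanine nucleotide exchange factor GEF-H1, rose from 232 ± 3.37 to 289 ± 8.06 CPM (SD, n = 3 each; log2 fold change 0.32, edgeR adjusted p = 0.0136), and shares exon sequence with Gm20652. Ybx3, the Y-box factor that binds ZO-1, fell from 107 ± 5.99 to 75.0 ± 6.23 CPM (SD, n = 3 each; log2 fold change -0.51, edgeR adjusted p = 0.0118). Magi1, a scaffold of tight and adherens junctions, fell from 109 ± 3.14 to 86.6 ± 6.56 CPM (SD, n = 3 each; log2 fold change -0.33, edgeR adjusted p = 0.0477), near the threshold. The Arhgef2 call was lost without control 3, Insm1 library 2 or Insm1 library 3 (adjusted p between 0.0525 and 0.0755). The Ybx3 call was lost without control 3 or Insm1 library 3 (adjusted p = 0.0666 and 0.0526 in edgeR), and the Magi1 call when any library other than Insm1 library 1 was left out (adjusted p between 0.0638 and 0.178). Tjp1 (ZO-1), a scaffold that binds claudins directly, was at 75.0 CPM in the mean of the controls and 69.5 CPM in that of the Insm1 libraries, with an edgeR adjusted p of 0.64. Tjp3 and cingulin (Cgn) were at 3.28 and 2.19 CPM in the controls, with adjusted p values of 0.69 and 0.46.

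**Figure D4:**
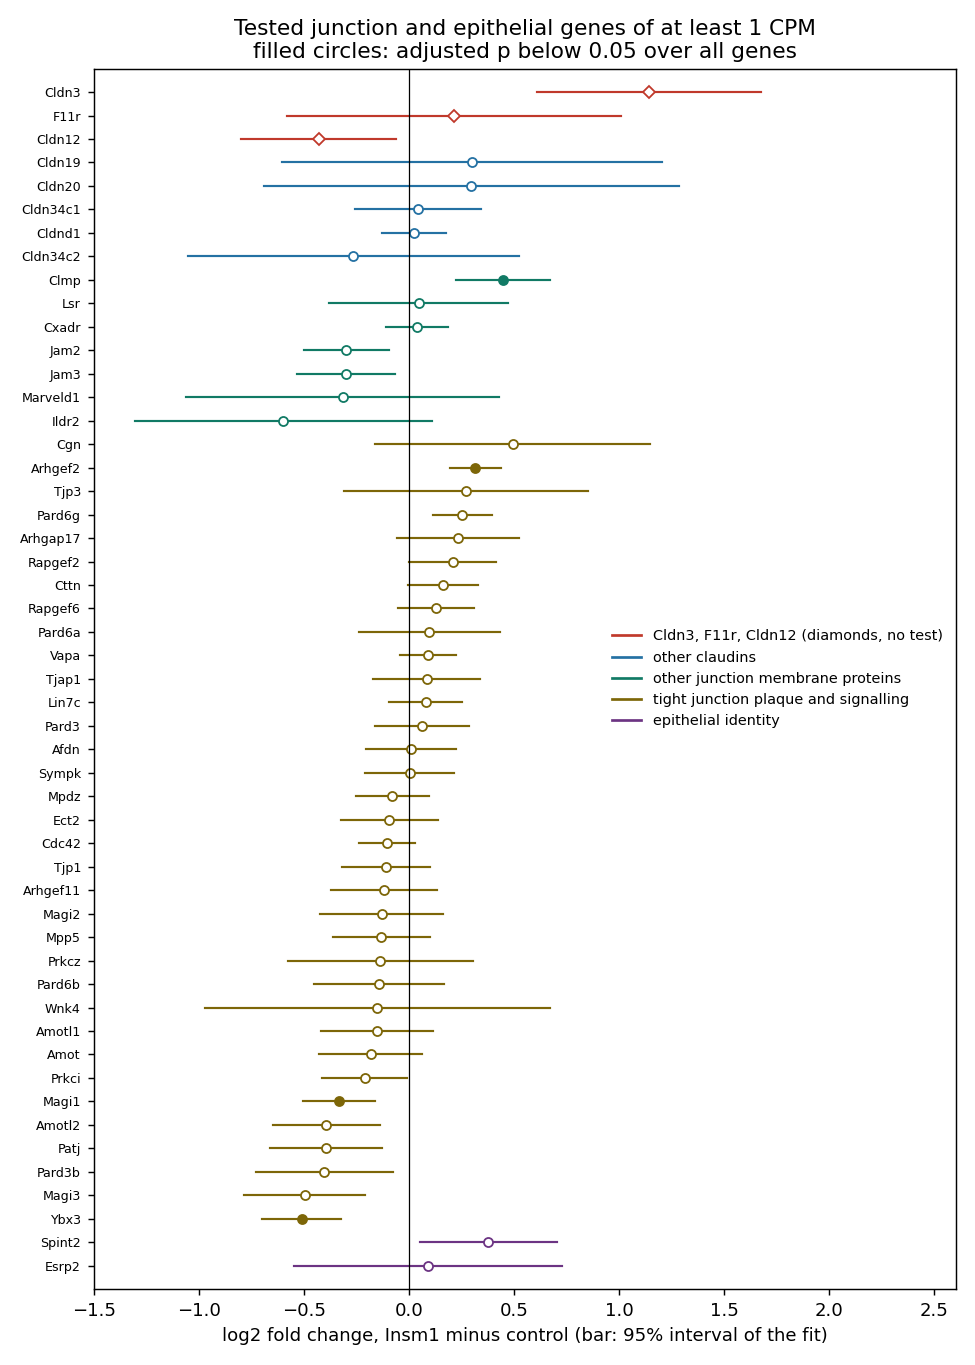
Log2 fold change of Insm1 minus control with the 95% interval of the edgeR fit for the tested junction or epithelial genes with a mean of at least 1 CPM, coloured by list and leaving out 1 plaque gene that is not reported here. Cldn3, F11r and Cldn12 are diamonds and carry no test; filled circles passed an adjusted p of 0.05 over all genes (Clmp and Arhgef2 higher, Magi1 and Ybx3 lower).

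Genes that define epithelia had few counts. Of 22 such genes 3 had enough to be tested, and 1 (Spint2) was at an unadjusted p below 0.05. None was called by edgeR, where 3.35% of all tested genes were, or by DESeq2 or limma. With 3 genes nothing is read from this. At 0 in all 6 libraries were 5 of the 22, among them E-cadherin (Cdh1). Krt8 and Krt18, keratins of simple epithelia, had 0 and 10 counts in the 3 controls and 7 and 5 in the 3 Insm1 libraries. Grhl2, a transcription factor of epithelial junction genes, had 2, 4 and 16 counts in the controls and 0, 1 and 0 in the Insm1 libraries. Ovol1 and Lad1, also epithelial, lay the other way, with 7 and 0 counts in the 3 controls and 28 and 18 in the 3 Insm1 libraries. Spint2, an epithelial protease inhibitor, was the most abundant at 17, 13.2 and 13.6 CPM in the controls and 19.3, 19.9 and 17.8 CPM in the Insm1 libraries. Its groups did not overlap, its log2 fold change was 0.38 with a 95% interval from 0.053 to 0.70, and its edgeR adjusted p was 0.22. The splicing factor gene Esrp2 was at 2.78 ± 0.39 and 2.96 ± 0.4 CPM (SD, n = 3 each; edgeR adjusted p = 0.92).

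Markers of other cells that express tight junction genes were low. The endothelial markers Cdh5 and Tek were at 0 in the 3 controls and at 4 and 9 counts in Insm1 library 2, which had 0 counts of Cldn5. Pecam1, Kdr and Tie1 were also highest in that library, at 22, 29 and 7 counts. In the controls Pecam1 had 6, 2 and 2 counts, Kdr 7, 5 and 8, and Tie1 0, 0 and 2. Flt1 and Eng were highest in Insm1 libraries 1 and 3, at 18 and 15 counts. Slco1c1 and Emcn lay the other way, with 31 and 2 counts in the 3 controls and 2 and 0 in the 3 Insm1 libraries. Of the 12 endothelial genes 3 were tested and none was called, and their summed level was 35.5 to 46.8 CPM in the controls and 35.5 to 42.5 CPM in the Insm1 libraries, most of it the glucose transporter gene Slc2a1. The 10 choroid plexus genes summed to 5.0 to 7.51 and 4.75 to 8.72 CPM. Most of that was Enpp2, at 3.92 ± 0.46 and 5.53 ± 2.35 CPM (SD, n = 3 each; edgeR adjusted p = 0.51). Ttr, the most typical of them, had 4, 0 and 0 counts in the controls and 0, 0 and 13 in the Insm1 libraries. Clic6, Otx2, Aqp1 and Kcnj13 of that list lay the other way, with 56, 43, 24 and 15 counts in the controls and 3, 22, 11 and 5 in the Insm1 libraries. In the oligodendrocyte lineage list, whose cells use Cldn11, Sox10 had at most 2 counts in a library, and the sum was 40.5 to 42.7 and 39.8 to 49.7 CPM. Meningeal genes summed to 4.34 to 5.40 and 3.34 to 4.69 CPM and mural genes to 30.2 to 40.7 and 16.0 to 25.5 CPM, the latter mainly Notch3. None of the tested genes of these 5 lists was called by edgeR, where 3.35% of all tested genes were. These lists are too short to read anything from that count. At an unadjusted p below 0.05 in edgeR were 2 (Notch3 and Mbp), and DESeq2 called Notch3 lower. Red blood cell genes summed to 754, 5493 and 325 CPM in controls 1, 2 and 3 and to 5052, 5148 and 3796 CPM in the Insm1 libraries. The microglial sum was 1.07, 61.9 and 7.70 CPM in the controls and 9.34 to 32.1 CPM in the Insm1 libraries. The part of these cells in the values above was not tested.

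The genes whose values across the 6 libraries were closest to those of Cldn3 were sought among the tested genes that have a symbol. The measure was the root-mean-square difference of log2 CPM after each gene was centred on its own mean. They were Ly6g6e, an Ly6-family gene, with a difference of 0.17 log2 units, the epithelial calcium channel gene Trpv6 with 0.17, the phospholipase C gene Plch2 with 0.21, Klhl35 with 0.22 and the neuronal pentraxin gene Nptx2 with 0.22, each over 6 libraries. This likeness includes the difference between groups that chose Cldn3 and is a description. Ly6g6e was at 8.51 ± 1.93 and 18.3 ± 0.82 CPM and Plch2 at 17.9 ± 3.31 and 38.3 ± 6.32 CPM (SD, n = 3 each). Trpv6, at 2.26 ± 0.93 and 4.07 ± 1.02 CPM (SD, n = 3 each), overlapped between the groups, as did Nptx2. Ly6g6e shares exon sequence with Ly6g6d. Closest to Cldn12 were Ccdc73 at 0.068, Swap70 at 0.073 and Man2a1 at 0.088 log2 units, and closest to F11r were Cdh10 at 0.079, Pomgnt2 at 0.083 and Zfp748 at 0.086. For Cldn1 the nearest, Bdh2, Acad10 and AF529169, were at 0.43 to 0.47 log2 units, all genes with means of 1 CPM or less.

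**Figure D5:**
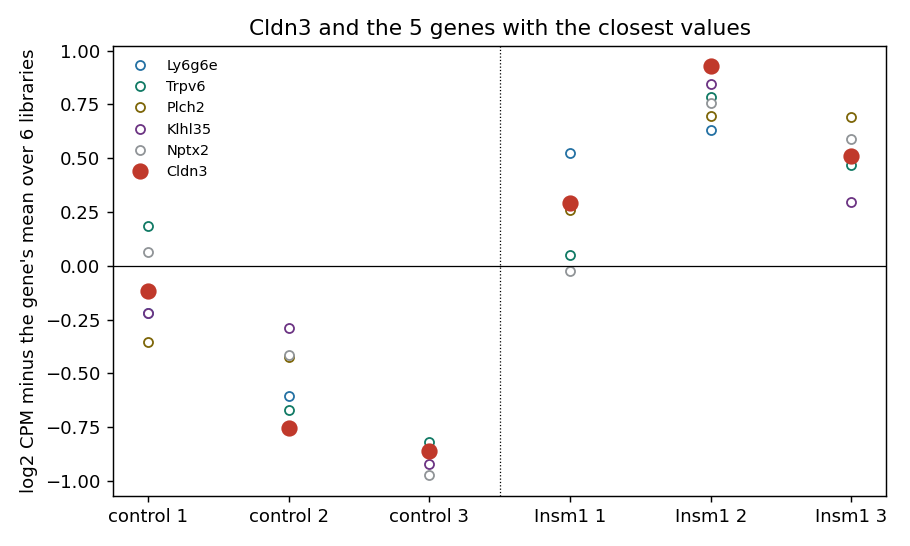
Log2 CPM minus each gene's mean over the 6 libraries for Cldn3 (filled) and the 5 closest genes that have a symbol (open), by library, controls left of the dotted line. Cldn3 is lowest in control 3 at -0.86 and highest in Insm1 library 2 at 0.93, and Trpv6 and Nptx2 have control 1 above Insm1 library 1.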

How the data were processed

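RNA was measured in 6 libraries of mCherry-positive cells. Per the labels' protocols, poly-dT-primed, template-switched cDNA received 12 cycles of PCR, was fragmented by ultrasound and received 15 more as a library; reads were single, 75 bases long, and neither molecular identifiers nor strand marking are named. The submitters' processing notes list GRCm38 as build and bcl2fastq, Bowtie and TopHat2 (2.0.13) as tools. How reads were assigned to genes is not stated in the labels. The deposited counts are whole numbers per gene. The authors' deposited TPM values were used only for the length comparison and for limma; the table lacks values for 333 genes.

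Counts were filtered by filterByExpr (13560 genes kept), scaled by TMM and fitted with edgeR 4.0.16 (R 4.3.3; robust quasi-likelihood, group only, two-sided, Benjamini-Hochberg over all tested genes, called below 0.05); standard errors come from the F statistic. The fit was tested on counts simulated from its own dispersions, which cannot show how stable the calls are in these libraries. Coordinates and lengths are from GENCODE M21. Values after ± are SDs over 3 libraries. The genes and lists were chosen with earlier results of these data known. Named were the 9 genes, Insm1, called genes and the 6 most abundant of each pathway list (2 per marker list), the 5 genes closest to Cldn3 and 3 closest to the others, and the neighbours of tested genes. Other list members (Sox2, Pax6, Neurog2, Eomes, Hes5, Tjp1, Tjp3, Cgn, Marveld2, Cdh1, Krt8, Krt18, Grhl2, Lad1, Cdh5, Tek, Pecam1, Kdr, Tie1, Flt1, Eng, Slco1c1, Emcn, Ttr, Clic6, Otx2, Aqp1, Kcnj13, Sox10) were chosen after their values were seen. Some named by the rule are not described, and 1 plaque gene, counted in its list, is not reported here. Replicate libraries differed beyond counting error (chi-square per degree of freedom 12.43 to 31.05). Alternatives were RLE scaling, DESeq2 1.42.0, limma 3.58.1 on log2(TPM + 1) and log2(TPM + 0.1), 2 other filters, a replicate block, a fit that is not robust and each library left out.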

Additional observations from a re-analysis of the deposited data

How the results depend on the processing

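The log2 fold change of Cldn3 moved by less than the pooled SD of its log2 CPM within groups in all 14 alternatives. That is a loose bound with 3 libraries per group. With single libraries left out the log2 fold change lay between 0.95 and 1.42. The 9 genes were picked with this comparison in view, so a count of calls among them supports nothing. That count was 1 of 4 tested in the fit reported, where 3.35% of all tested genes were called. It was 0 of 2 with limma on log2(TPM + 1) or log2(TPM + 0.1), and 0 to 1 of 4 with single libraries left out. Cldn3 was not called without control 2, control 3, Insm1 library 2 or Insm1 library 3. Without Insm1 library 2 the gene called was Cldn12 (lower). The other junction and epithelial genes had 4 calls, against 7 with DESeq2, 2 with a fit that is not robust, 0 with limma on either TPM scale (12 at an unadjusted p below 0.05 in each) and 0 to 4 with single libraries left out. Over all genes 454 were called, against 1022 with DESeq2, 98 and 57 with limma on log2(TPM + 1) and log2(TPM + 0.1), and 101 to 631 with single libraries left out. The cause of these differences was not tested.

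With the replicate number as a replicate block edgeR called 331 genes over all. It called 2 of the other junction and epithelial genes (Arhgef2 and Ybx3) and 0 of the 4 tested among the 9 genes. Same-numbered libraries deviated from their group means with correlations of 0.0744, 0.0349 and -0.055, so the numbers were not taken to pair the samples.

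The log2 ratio of Cldn3 to Cldn12 per length was -0.90 in the controls and 0.72 in the Insm1 libraries with merged exons, and 1.69 and 3.31 with the authors' TPM, whose length is the gene span. Counts below about 50 over 6 libraries gave no usable difference for Ocln, Cldn10, Cldn1, Epcam, Cldn5 and Cldn11.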
